A study of Ovis aries with 9 samples.

Results

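Sperm of F1 rams whose mothers had been kept on restricted feed (group RES) were compared with sperm of F1 rams whose mothers had received standard feed (group CON) by small RNA sequencing. The groups were taken from the sample titles, and they hold 6 of the 9 samples of the study, with 3 samples in each group. All animals were sheep (Ovis aries) labelled WT, the sequenced cells were labelled as sperm from semen, and the labels give no breed, age or number of rams. The study asks whether feeding of the pregnant ewe is seen in the sperm of her sons.

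The 3 deposited tables of a group held the same sequences with the same numbers of reads. Each group was therefore read as 1 library, but the files do not show whether that library came from 1 ram or from several. The design therefore gives no test and no spread between rams, and the intervals printed here reflect counting error alone. Reads copied in PCR without molecular identifiers are not independent molecules, so the real error is larger. In sperm RNA taken in bulk, fewer cells of a type and less RNA per cell cannot be told apart.

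The CON library held 9983895 reads and the RES library 13160116 reads of 15 to 42 nt. Reads that matched the genome made up 77.9% of CON and 86.0% of RES, and 57.6% and 67.6% carried an annotation. The libraries shared 262848 distinct sequences, which were 20.04% of the distinct sequences of CON and 21.03% of those of RES and which held 85.5% and 88.7% of the reads. Levels are given as RPM, the reads of a sequence or group of sequences per 1000000 reads of the library. Reads with an unread base (N) at position 2 stood at 57.7 RPM in CON and 625 RPM in RES. The seed of miR-34 and miR-449, shared by microRNAs of late male germ cells and of ciliated epithelium, was abundant in both, at 6019 RPM in CON and 7108 RPM in RES.

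Mature sperm carry little RNA and make almost none. Much of their small RNA consists of the first bases of tRNAs, cut in or next to the anticodon loop, and in mice part of it is taken up from the epithelium of the epididymis while sperm mature. Y RNAs are short non-coding RNAs that bind the Ro60 protein, and their ends are also found as stable fragments. MicroRNAs (miRNAs) are cut by Dicer and guide Argonaute proteins to messenger RNAs through their seed, the bases from position 2 to 8. Small nucleolar RNAs (snoRNAs) guide the modification of ribosomal RNA in the nucleolus, a structure that mature sperm lack.

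The sequences on which the comparison turns are printed here in lower case as they stand in the deposited tables, as DNA letters from the 5′ to the 3′ end. The first set holds 5′ fragments of tRNAs and Y RNAs, shown because the tRNA difference depended on their 3′ end and the Y RNA difference on the RNA they come from. Capitals mark the bases of tRNA fragments after position 30.
Val-CAC fragment of 23 nt: gtttccgtagtgtagtggttatc
Val-CAC fragment of 33 nt: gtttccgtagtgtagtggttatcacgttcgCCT
Lys-CTT fragment of 32 nt: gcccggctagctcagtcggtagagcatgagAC
His-GTG fragment of 30 nt: gccgtgatcgtatagtggttagtactctgc
Y1-type fragment of 31 nt: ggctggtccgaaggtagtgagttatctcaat
Y4-type fragment of 32 nt: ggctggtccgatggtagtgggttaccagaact

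The second set holds the fragments of rRNA and of other non-coding RNA with the largest excess in RES and the 3 snoRNA fragments most abundant in CON, which were much lower in RES. Capitals mark the motifs TGATG and CTGA, which are the letters of the C and D boxes of box C/D snoRNAs.
28S rRNA fragment of 21 nt: tgaaaagaactttgaagagag
Mitochondrial rRNA fragment of 25 nt: ccgaaactcaaaggacttggcggtg
Misc RNA fragment of 22 nt: atgccgatcgggtgtccgcact
Mitochondrial tRNA Phe-GAA fragment of 26 nt: tagcttaaacttaaagcaaggcactg
First snoRNA fragment, 27 nt: gcgggTGATGcgaactggagtCTGAgt
Second snoRNA fragment, 28 nt: tagcgtgttgacaagtctaactCTGAag
Last snoRNA fragment, 28 nt: acgctgtgCTGAttgtcatgttCTGAtt

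The third set holds the leading read of miRNAs that stood apart or mark a cell type, with the seed in capitals.
miR-200b: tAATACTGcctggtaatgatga
miR-200c: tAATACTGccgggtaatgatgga
let-7a: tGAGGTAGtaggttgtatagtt
miR-181a: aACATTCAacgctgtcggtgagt
miR-221: aGCTACATtgtctgctgggtttct
miR-148a: tCAGTGCActacagaactttgt
miR-21: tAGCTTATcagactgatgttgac
miR-451: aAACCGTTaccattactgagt
miR-486: tCCTGTACtgagctgccccgagt
miR-223: tGTCAGTTtgtcaaatacccca

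Reads of the RES library were shorter. The mean read length was 28.5 nt in CON and 27.2 nt in RES, a difference of -1.36 nt. Reads of 15 to 20 nt made up 5.98% of CON (exact Clopper-Pearson 95% interval 5.96 to 5.99) and 10.3% of RES. The miRNA window of 21 to 24 nt held 17.6% and 24.7%. The 29 to 30 nt window, where most tRNA fragments lie, held 28.3% of CON and 20.4% of RES, while the 31 to 33 nt window of the Y RNA fragments held 18.8% and 21.1%.

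**Figure D1:**
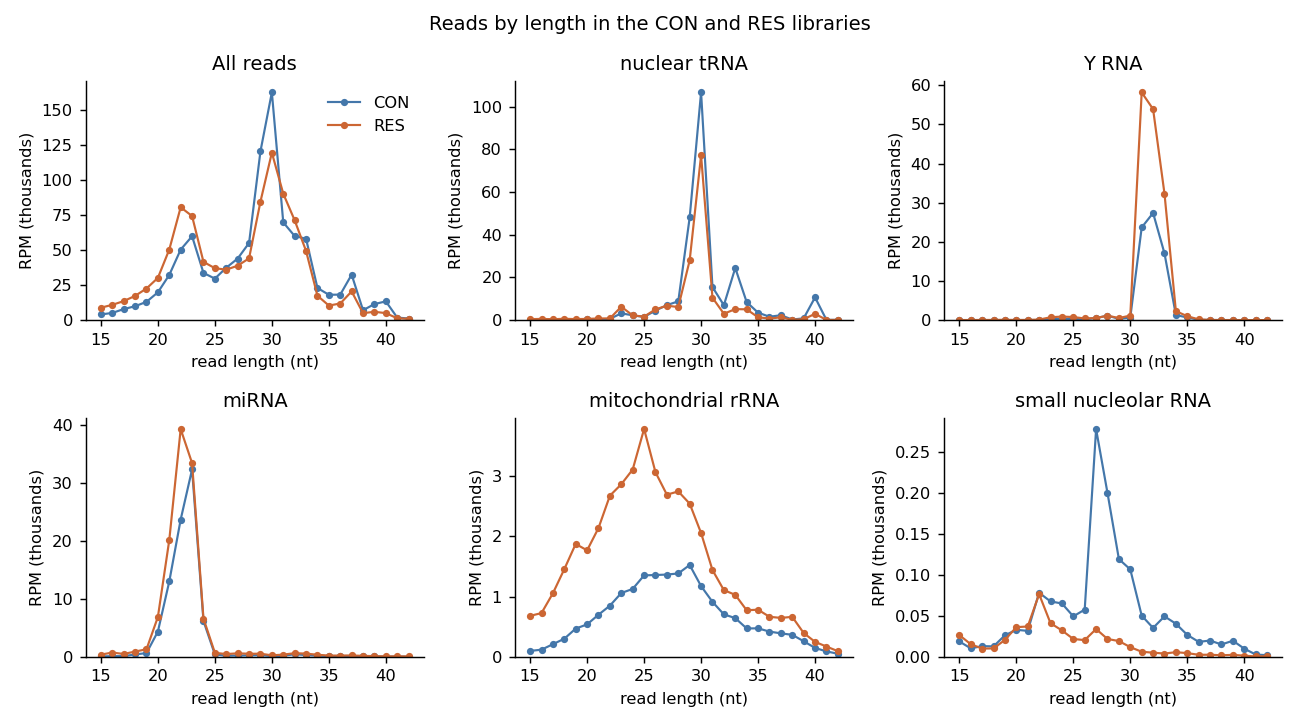
RPM in units of 1000 against read length in nt, for all reads and for 5 classes of RNA, with CON in blue and RES in orange and 1 library each. Nuclear tRNA reads of RES lack the peak at 33 nt that CON shows, Y RNA reads are about as long in both libraries but more abundant in RES, and a snoRNA peak at 27 nt stands out in CON.

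Because classes of RNA differ in length, a class or name was compared at matched length. Its RPM was taken within each read length and averaged over 15 to 42 nt with the mean of the length shares of both libraries as weights. This length-matched RPM is given beside plain RPM, which scales by all reads of a library. Ratios are RES over CON on the log2 scale, and a name was called apart where the length-matched levels differed at least 2-fold and it had at least 100 reads in both libraries together.

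At matched length 2 classes were more than 2-fold apart and the miRNAs were level. Mitochondrial rRNA stood at 18526 RPM in CON and 43203 RPM in RES, a length-matched log2 ratio of 1.15. Small nucleolar RNA went the other way, from 1457 RPM in CON to 471 RPM in RES, with a length-matched log2 ratio of -1.76 (95% counting interval -1.81 to -1.72). The miRNA class, at 84061 and 116123 RPM, had a plain log2 ratio of 0.47 and a length-matched ratio of -0.02, and the plain difference went with the larger share of 21 to 24 nt reads in RES. MiRNAs themselves made up 42.6% of the 21 to 24 nt reads in CON and 40.3% in RES. Matching by length can thus remove part of a difference of their own.

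Y RNA and misc RNA were also higher in RES. Y RNA had 74054 RPM in CON and 154340 RPM in RES (length-matched log2 ratio 0.91), and misc RNA had 43438 and 81845 RPM (0.74). Nuclear tRNA was lower, with 258677 RPM in CON and 168294 RPM in RES, by -0.62 in plain and -0.28 in length-matched terms. Small nuclear RNA, the RNA of the spliceosome, was level in plain RPM (log2 ratio 0.08) and lower at matched length (-0.51).

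**Figure D2:**
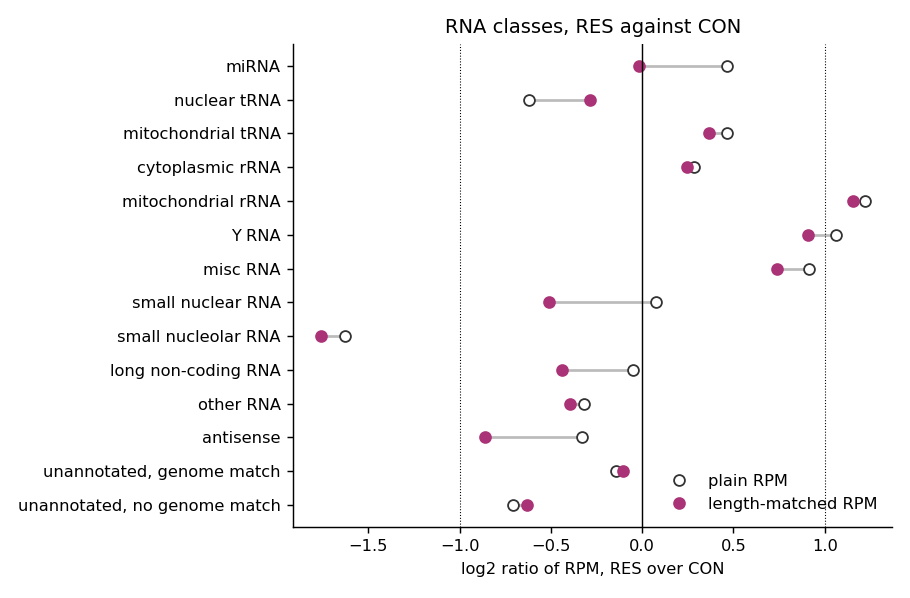
Log2 ratio of RPM, RES over CON, for each class of RNA, with plain RPM as open and length-matched RPM as filled points. Dotted lines mark 2-fold, and mitochondrial rRNA lies past it on the right and small nucleolar RNA on the left under both scalings.

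Of the 169 annotation names compared, 5 (2.96%) were at least 2-fold higher in RES and 28 (16.6%) at least 2-fold lower. By kind, 0 of 74 ovine miRNAs (0%) were called higher and 23 (31.1%) lower, 3 of 70 tRNAs (4.29%) were called higher and 0 (0%) lower, and 2 of 25 other names (8%) were called higher and 5 (20%) lower. Among 6275 annotated single sequences that matched the genome and had enough reads, RES was 2-fold or more above CON within the same length for 2011 (32%) and 2-fold or more below for 666 (10.6%).

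Nuclear tRNA was lower in plain RPM at 29 to 30 nt, with 154728 RPM in CON and 105183 RPM in RES, and at 31 to 33 nt, with 46868 and 18587 RPM. In RPM the first of these differences was the larger, and RES also held fewer reads of 29 to 30 nt. Among reads of 31 to 33 nt, nuclear tRNA made up 24.9% in CON and 8.81% in RES, whereas among reads of 29 to 30 nt it made up 54.6% and 51.5%. As most reads of 29 to 30 nt are nuclear tRNA, their total falls with it. The share therefore cannot tell how much of the difference at 29 to 30 nt is that of nuclear tRNA itself. Y RNA takes many of the 31 to 33 nt reads, 36.2% in CON and 68.4% in RES, and this lowers the share left for all other RNA. With Y RNA reads left out, the nuclear tRNA share of 31 to 33 nt reads was 39.1% in CON and 27.9% in RES, a log2 ratio of -0.49 in place of -1.501.

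All 21 nuclear tRNAs with enough 5′ reads in both length ranges had a lower ratio at 31 to 35 nt than at 15 to 30 nt. At 31 to 35 nt, 18 of the 21 (85.7%) were at least 2-fold lower in RES, with a median log2 ratio of -1.94, and counted by single sequence this was 126 of 216 nuclear tRNA sequences of that length (58.3%), against 102 of 893 annotated sequences that were not nuclear tRNA (11.4%). At 15 to 30 nt, 0 of the 21 were, and the median was -0.09. The medians in plain RPM were -0.47 at 15 to 30 nt and -2.01 at 31 to 35 nt. With Y RNA reads left out of the totals, 10 of the 21 were 2-fold lower or more at 31 to 35 nt, with a median of -0.98, and 19 of the 21 had the lower ratio at 31 to 35 nt. Isoacceptors with the same 5′ letters share reads, so the 21 names are not independent.

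The same pattern was read without any library total, as the number of 31 to 35 nt reads per 100 reads of 15 to 30 nt of the same tRNA. It was lower in RES for 21 of 21 nuclear tRNAs and at least 2-fold lower for 16, with a median of 3.26-fold over these names. Over all nuclear tRNA reads together it was 31.9 in CON and 18.1 in RES, only 1.76-fold lower. Over the annotated reads that were neither Y RNA nor nuclear tRNA it was 13.8 in CON and 9.05 in RES, or 1.52-fold lower, and over all reads, Y RNA included, it was level at 33.4 and 33.6. The same ratio was 2.63-fold lower for misc RNA and 2.98-fold lower for snoRNA, so fewer long reads were not limited to nuclear tRNAs.

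The valine tRNAs differed in both directions. Fragments of 23 nt with the Val-CAC letters stood at 2367 RPM in CON and 5077 RPM in RES and formed 31.4% and 69.6% of all fragments with that start. Those of 33 nt stood at 796 and 56.5 RPM. The leading 23 nt read of Val-TAC is the same as that of Val-CAC. Val-TAC had 4.43 long reads per 100 short ones in CON and 0.209 in RES. This 21.1-fold difference was the largest of the 21, but it does not measure Val-TAC alone. The shared read, at 2364 and 5071 RPM, made up most of the short reads named Val-TAC, at 2922 and 5519 RPM. The long reads named Val-TAC, at 129 and 11.6 RPM, leave out most 33 nt fragments with the same start. For Val-CAC the ratio was 7.35-fold lower in RES.

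Lysine, glycine and cysteine tRNAs had fewer long fragments as well. Lys-CTT fragments of 32 nt stood at 159 RPM in CON and 10.6 RPM in RES, and its 5′ reads of 31 to 35 nt together at 686 and 65.0 RPM. For Gly-GCC, a tRNA whose sperm fragments respond to paternal diet in mice, 5′ reads of 15 to 30 nt had 27881 and 19734 RPM and those of 31 to 35 nt had 11569 and 2869 RPM. For Cys-GCA the short reads were higher in RES, at 106.5 and 164 RPM, and the long ones lower, at 501 and 236 RPM.

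His-GTG and Asp-GTC did not share the split. His-GTG fragments stood at 31807 RPM in CON and 30062 RPM in RES at 30 nt, and at 1181 and 1190 RPM at 33 nt, although those of 32 nt stood at 222 and 55.9 RPM. The His-GTG ratio of long to short reads with a named 5′ end was 1.09-fold lower in RES and that of Asp-GTC 1.08-fold lower. The leading His-GTG read of 30 nt carries no end name and is not counted in that ratio, which therefore does not cover all His-GTG fragments. The proline isoacceptors, at 1.59- to 1.62-fold, lay near the value for other annotated reads. Among 6 mitochondrial tRNAs with enough 5′ reads, 0 were at least 2-fold lower at 31 to 35 nt, and their medians were 0.03 at 15 to 30 nt and -0.21 at 31 to 35 nt. Of these 6, 4 had a lower ratio at 31 to 35 nt than at 15 to 30 nt. All mitochondrial tRNA reads together had 10.7 long reads per 100 short ones in CON and 6.72 in RES, 1.60-fold lower.

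**Figure D3:**
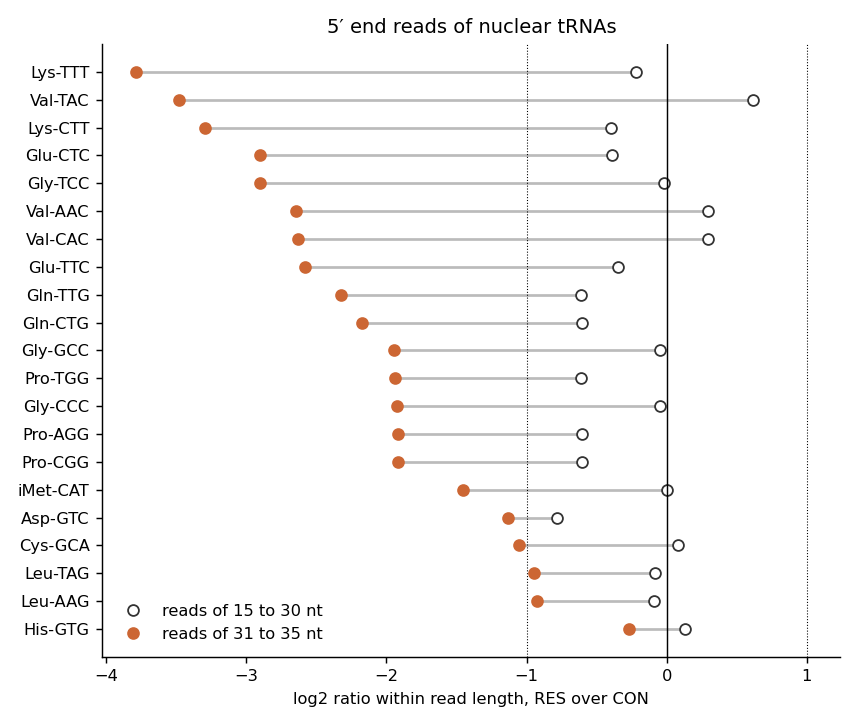
Log2 ratio within read length, RES over CON, of the 5′ end reads of 21 nuclear tRNAs, with reads of 15 to 30 nt as open and of 31 to 35 nt as filled points. Each filled point lies left of its open point, from -3.79 for Lys-TTT to -0.27 for His-GTG, with all reads of a length as the total.

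Taken over all lengths, 67 of the 70 tRNA names compared lay within 2-fold at matched length. Their median length-matched log2 ratio was -0.23 (plain -0.02), with each name counted once whatever its level. In plain RPM the nuclear tRNA class as a whole was 1.54-fold lower in RES. Grouped by their first 20 bases, Glu-CTC fragments had a plain log2 ratio of -1.15 and Lys-CTT fragments -2.46. His-GTG (-0.09) and Val-CAC (-0.04) were near level, and Leu-TAA (1.60) went the other way. So did the group taken for Arg-TCG (1.95), but its reads are not those of Arg-TCG alone. Its leading 21 nt read, at 71.7 RPM in CON and 305 RPM in RES, is also named Gln-CTG and Gln-TTG. Arg-TCG reads of 15 to 30 nt with a named 5′ end were fewer in RES, with 55 reads in CON and 17 in RES. Of the 10 tRNAs whose sperm fragments are known from rodent studies of paternal diet or stress, 1 was above and 9 below equality at matched length, 0 were 2-fold apart, and the median was -0.42, beside 20 above and 50 below among all 70. In plain RPM 0 of the 10 were above and 10 below, with a median of -0.68. The lowest of the 70 were Lys-CTT (-0.95), mitochondrial Ser-GCT (-0.95), mitochondrial Leu-TAA (-0.91), Thr-TGT (-0.82) and Ile-TAT (-0.80). Nuclear tRNA reads with a named 5′ end had a length-matched log2 ratio of -0.47, and those with no end named had 0.22. The latter stood at 58961 RPM in CON and 55656 RPM in RES. They include the 30 nt His-GTG 5′ fragment printed above, at 31601 and 29861 RPM, which carries no end name. These ratios therefore do not separate 5′ fragments from other tRNA reads.

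The tRNAs called higher were mitochondrial Phe-GAA, mitochondrial Cys-GCA and nuclear Leu-TAA. Phe-GAA of the mitochondrion, which lies at the head of the rRNA genes in the mitochondrial transcript, had 853 RPM in CON and 2139 RPM in RES, a length-matched log2 ratio of 1.27. Its 26 nt fragment accounts for much of this, with 338 and 928 RPM. Mitochondrial Cys-GCA had 354 and 872 RPM (1.13), and Leu-TAA had 116 and 319 RPM (1.07). Next came mitochondrial Ala-TGC with 7.51 and 15.7 RPM (0.79) and Arg-TCG with 234 and 592 RPM (0.75), both short of 2-fold at matched length. The Arg-TCG level includes a 21 nt read shared with Gln-CTG and Gln-TTG, at 71.7 and 305 RPM.

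Most of the Y RNA difference lay in fragments with the 5′ letters of Y1 RNA. Those of 31 nt stood at 23061 RPM in CON and 57463 RPM in RES, those of 32 nt at 25545 and 53230 RPM, and those of 33 nt at 16691 and 32048 RPM. The lengths themselves differed little: 31 nt reads were 33.8% of these fragments in CON and 38.7% in RES. Y RNA reads of 31 to 33 nt were thus more abundant in the library in which nuclear tRNA fragments of the same length were scarcer.

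Fragments with the 5′ letters of Y4 RNA went the opposite way at each length with enough reads. At 32 nt they stood at 1611 RPM in CON and 165 RPM in RES, at 31 nt at 243 and 26.1 RPM, and at 33 nt at 279 and 26.1 RPM. Their length profile was also alike, with 73.8% of CON and 74.2% of RES fragments at 32 nt. A separate group of Y RNA fragments, from the 3′ side, begins with cttctcactact and is not counted with the Y4 fragments. It was higher in RES at 24 nt, with 239 and 646 RPM, and not at 28 nt, with 911 and 772 RPM.

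Mitochondrial RNA was higher in RES in sum, mostly through its rRNA. All mitochondrial names together had 25630 RPM in CON and 53607 RPM in RES, a 2.09-fold difference. Mitochondrial rRNA was higher in each of 6 length windows, with log2 ratios of its share from 0.50 at 31 to 33 nt to 1.43 at 34 to 42 nt. Of 1171 mitochondrial rRNA sequences, 700 were called higher (59.8%) and 39 lower (3.33%), beside 32% and 10.6% of all 6275 sequences.

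Its largest single excess in RES was the 25 nt fragment printed above, at 201 RPM in CON and 1114 RPM in RES. Reads that hold its first 16 bases had 981 and 3860 RPM, and the other mitochondrial rRNA reads still had 17545 and 39343 RPM, a length-matched log2 ratio of 1.10. Reads named mt_DNA had 221 and 910 RPM (2.37). Mitochondrial tRNA reads together were higher, with 6883 RPM in CON and 9494 RPM in RES (length-matched log2 ratio 0.36, plain 0.46). Counted by name, 6 of 18 were above and 12 below equality at matched length, beside 20 above and 50 below among all 70 tRNAs. The median of the 18 was -0.19 (plain 0.09, with 10 above and 8 below), beside -0.23 (plain -0.02) over the 70.

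The largest difference in cytoplasmic rRNA lay at a single site. The 28S fragment of 21 nt stood at 186 RPM in CON and 3204 RPM in RES, 11.0-fold higher within its length. Reads that hold its first 16 bases made up 1.92% of 28S reads in CON and 13.1% in RES, with a length-matched log2 ratio of 2.88. All other 28S reads, at 29301 and 35905 RPM, had a length-matched ratio of 0.13. By species the length-matched log2 ratios were -0.05 for 5.8S, 0.06 for 18S, 0.24 for 5S and 0.28 for 28S. With mitochondrial rRNA as the fifth, 4 species were above and 1 below equality, and the median was 0.24, beside -0.31 over the 25 other names.

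Misc RNA was higher both at 1 site and outside it. The 22 nt fragment, which has letters of 7SL, the RNA of the signal recognition particle, stood at 1138 RPM in CON and 5463 RPM in RES. Reads with its first 16 bases had 4109 and 14401 RPM (length-matched log2 ratio 1.503), and the other misc RNA reads had 39329 and 67444 RPM (0.62). Of 942 misc RNA sequences, 499 were called higher (53.0%) and 25 lower (2.65%), beside the 32% and 10.6% of all sequences.

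The snoRNA difference was larger in reads of 25 nt or more than in shorter ones. Within their length window, snoRNA reads had log2 ratios of -0.73 at 15 to 20 nt and -0.86 at 21 to 24 nt. The ratios were -2.49 at 25 to 28 nt, -2.39 at 29 to 30 nt, -3.32 at 31 to 33 nt and -2.14 at 34 to 42 nt. Reads with both TGATG and CTGA on the sequenced strand stood at 537 RPM in CON and 59.04 RPM in RES, 9.10-fold lower. Reads with CTGA only had 558 and 206.2 RPM, those with TGATG only 173 and 30.5 RPM, and those with neither 124.5 and 122.04 RPM. For comparison, 3.37% of all annotated reads of CON and 2.27% of those of RES hold both motifs, and a match to these letters is only a description.

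The snoRNA fragments printed above, the most abundant of their class in CON, were much lower in RES. The first fragment printed above stood at 106.1 RPM in CON and 7.45 RPM in RES, the second at 53.8 and 3.80 RPM, and the third at 37.3 and 1.14 RPM, the last resting on 372 and 15 reads. Of 26 snoRNA sequences with enough reads, 21 were at least 2-fold lower in RES (80.8%) and 0 higher (0%), beside 10.6% and 32% of all 6275 sequences. Among the other names called lower were vault RNA, a part of the vault particle, with 10.4 and 4.10 RPM (length-matched log2 ratio -1.42), and reads antisense to snRNA, to miRNA and to mitochondrial rRNA (-1.58, -2.36 and -1.33). Antisense names could hold overlapping genes, and the labels do not state how strand was used in annotation.

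MiRNAs called lower belonged largely to a few families, and most of the abundant miRNAs lay within 2-fold. The median over the 74 was -0.41 at matched length and 0.15 in plain RPM, so the side of equality on which a typical miRNA lay depended on the scaling. In plain RPM, 3 were 2-fold higher or more and 13 were 2-fold lower or more. Reads that fit several names were counted for each, so the members of a family share many reads.

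Let-7 miRNAs, which are typical of differentiated cells and hold back growth genes, were lower in all 7 members compared. Let-7a had 1428 RPM in CON and 551 RPM in RES (length-matched log2 ratio -2.004), let-7f 1350 and 505 RPM (-2.05), let-7b 88.8 and 35.03 RPM (-2.06) and let-7c 934 and 414 RPM (-1.81). Let-7d, let-7g and let-7i lay nearer to the limit, at -1.32, -1.09 and -1.09. The median of the 7 was -1.81 at matched length and -1.17 in plain RPM, and all 7 were below equality under both. Of let-7a reads 93.4% also carry another name, and let-7a, let-7f and let-7c have the same leading read. The 7 are therefore not independent. The leading let-7d read, with 45 reads in CON and 48 in RES, has the seed TATACGA in place of the let-7 seed.

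The epithelial miR-200 family, which keeps cells from turning mesenchymal, was lower in its 3 named members. miR-200c had 171 RPM in CON and 34.5 RPM in RES (length-matched log2 ratio -2.76), miR-200b had 132 and 32.6 RPM (-2.68), and miR-200a had 161 and 66.8 RPM (-1.81). The list median was -2.68, beside -0.41 over all 74 miRNAs.

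The largest ratios belonged to scarcer miRNAs. miR-181a-2 had 9.32 RPM in CON and 1.44 RPM in RES, or 93 and 19 reads, with a log2 ratio of -3.16 (95% counting interval -3.87 to -2.45), and miR-181a-1, which shares most of its reads, had -2.89. miR-221, a miRNA of vessels and of proliferating cells, had 40.1 and 6.31 RPM (-3.06).

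The metabolic list, miRNAs linked to lipid and glucose handling, had 2 of 11 above and 9 below equality at matched length, beside 19 above and 55 below among all 74. Of the 11, 6 were called lower, beside the 31.1% of all 74, and the median was -1.14. In plain RPM 5 were above and 6 below equality. miR-26a, which targets genes of insulin signalling, had 1428 RPM in CON and 872 RPM in RES (-1.36), and miR-26b had 128 and 68.5 RPM (-1.52). miR-103 had 145 and 84.1 RPM (-1.15), miR-107 had 115 and 65.8 RPM (-1.18), miR-27a had 521 and 372 RPM (-1.14) and miR-143 had 7.91 and 3.80 RPM (-1.70). The leading read is the same for miR-103 and miR-107, and that of miR-26b is the start of that of miR-26a. The 6 are therefore not independent. Outside the list, miR-23a and miR-23b had -1.71 each.

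None of the 74 reached 2-fold higher at matched length. The highest was miR-148a, which targets the DNA methyltransferase DNMT1, with 5184 RPM in CON and 13560 RPM in RES, a plain ratio of 2.62-fold and a length-matched log2 ratio of 0.71. miR-30b followed with 96.1 and 219 RPM (0.54), then miR-3958 (0.34), miR-323a (0.31), miR-487a (0.31), miR-30c (0.24), miR-655 (0.24) and miR-191 (0.22). miR-191 is abundant in sperm and had 4272 and 7570 RPM. With miR-22, the other named member of the germ cell list, it gave 1 above and 1 below equality and a median of 0.09 (plain 0.73).

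Among the 10 most abundant miRNAs of CON, miR-21 led with 18443 RPM in CON and 14929 RPM in RES (-0.66). miR-99a stood at 9575 and 16652 RPM (0.14), miR-30a at 2800 and 3254 RPM (-0.26), miR-30d at 2574 and 3115 RPM (-0.25), miR-10a at 2147 and 2144 RPM (-0.58) and miR-10b at 2001 and 2033 RPM (-0.56). Let-7a and miR-26a, the others of the 10 beside miR-148a and miR-191, were the ones called lower.

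Reads named miR-99a were of 2 forms that differ at base 16, counted from 1 at the 5′ end, and these differed in opposite directions. The leading form, with the letters of miR-100, stood at 8833 RPM in CON and 16022 RPM in RES. The A16T form, with the letters of miR-99a, stood at 441 and 113 RPM, 3.88-fold lower. The sum under a single name thus hides a member that was lower.

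The imprinted DLK1-DIO3 domain, which encodes the largest miRNA cluster of placental mammals, showed a direction that depended on scaling. Of 49 names seen, 30 had enough reads. In plain RPM 25 were above and 5 below equality with a median log2 ratio of 0.59, beside a median of 0.15 over all 74 miRNAs. At matched length 13 were above and 17 below with a median of -0.05, beside 19 above, 55 below and -0.41 over all 74. The median of the domain thus lay above that of all 74 under both scalings. Of the 30, 2 were called lower at matched length, beside 31.1% of all 74: miR-127 (26.8 and 17.1 RPM, -1.22) and miR-409 (27.8 and 20.1 RPM, -1.04).

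The median of all 74 miRNAs, -0.41 at matched length, lay near that of 2 of the remaining lists. All 5 members of miR-17-92 and its paralogs, a cluster that promotes proliferation, were below equality at matched length, with a median of -0.37 (plain 0.11). The 4 of the miR-10, miR-99 and miR-125 group had 1 above and 3 below (-0.29, plain 0.27), while the 2 of the miR-148 and miR-152 group had 1 above and 1 below with a higher median (0.23, plain 0.90).

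**Figure D4:**
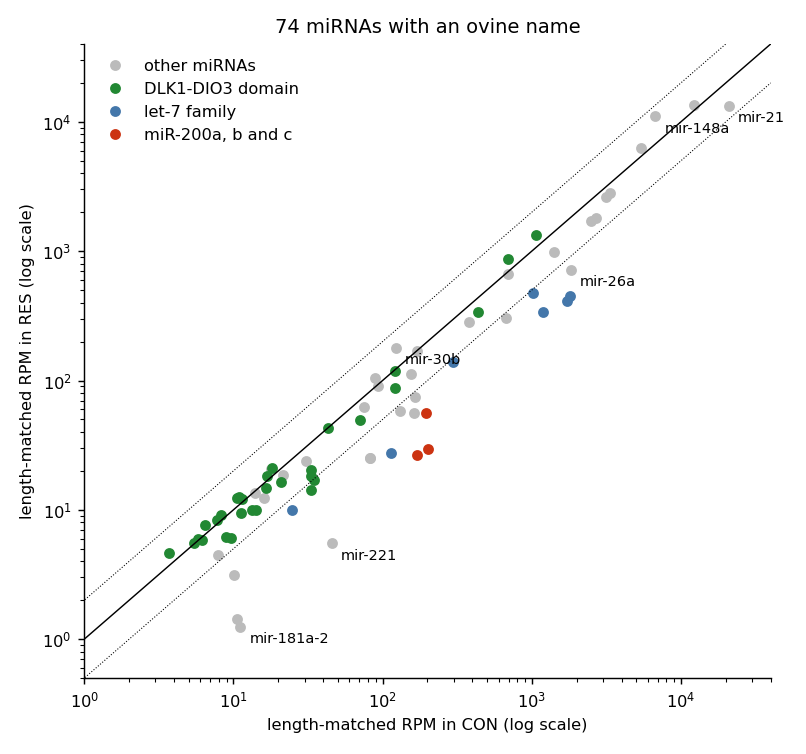
Length-matched RPM in RES against CON, both on log scales, for 74 miRNAs with an ovine name, with equality as a solid line and 2-fold as dotted lines. Let-7 members (blue) and miR-200a, b and c (red) lie under the lower dotted line, and no miRNA lies above the upper one.

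Of the reads in the miRNA class, 37.0% in CON and 40.9% in RES carried no ovine name, and they were grouped by seed. These include reads also annotated as misc RNA, which were 4.41% of the class in CON and 8.29% in RES, at 3703 and 9624 RPM. The higher unnamed share in RES thus goes with reads that may not be miRNAs. The seed ACCCGTA of miR-100 led with 7620 RPM in CON and 11815 RPM in RES (length-matched log2 ratio 0.31). GGCAGTG, the seed of miR-34 and miR-449, had 6072 and 7201 RPM (-0.19), GAGAACT of miR-146 had 1461 and 2492 RPM (0.40), ATCACTA had 1073 and 2333 RPM (0.52) and TATAAAG of miR-340 had 943 and 2051 RPM (0.46). ACCACAG of miR-140 had 1168 and 1427 RPM (-0.19), CACAGTG of miR-128 had 819 and 975 RPM (-0.29) and ACAGTAC of miR-101 had 466 and 872 RPM (0.28).

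The seeds GTAGTGG and CGCGCCT stood apart from these, with 391 and 1190 RPM (1.66) and 282 and 992 RPM (1.70). Every read of these groups was also annotated as misc RNA, and their mean lengths of 28.2 and 27.2 nt in CON are not those of a miRNA. Their ratios lay nearer to that of misc RNA than to that of the miRNA class.

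Seeds that mark cell types other than sperm were counted in miRNA reads of 20 to 24 nt, and they differed in opposite directions. A seed can be shared by several miRNAs, and the lysis step in the protocol was meant to remove somatic cells. For the epithelial markers, 7 seeds summed to 1433 RPM in CON and 483 RPM in RES. The seed of miR-200b, miR-200c and miR-429 stood at 1220 and 283 RPM, 4.32-fold lower in RES, and that of miR-141 and miR-200a at 124 and 51.0 RPM. Those of miR-182 (18.6 and 16.3 RPM) and miR-183 (17.3 and 22.9 RPM) differed less, miR-96 was higher (53.6 and 110 RPM), and miR-203 and miR-205, of stratified epithelium, were at 0 in both.

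Red cell seeds were almost missing in CON and present in RES. The miR-451 seed had 3 reads (0.3005 RPM) in CON and 1668 reads (127 RPM) in RES, a log2 ratio of 8.72 with a counting interval of 7.17 to 11.0. The miR-486 seed had 0.701 and 163 RPM, and miR-144 was at 0 in both. The 3 seeds summed to 1.002 RPM in CON and 289 RPM in RES.

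White cell seeds were split. miR-223, of neutrophils and monocytes, had 36.6 RPM in CON and 0.760 RPM in RES, 48.1-fold lower. miR-142-3p had 47 reads (4.71 RPM) in CON and 1 read (0.0760 RPM) in RES, with a counting interval of the log2 ratio from -11.3 to -3.40. miR-146, which many cell types make, was higher in RES with 1453 and 2480 RPM and set the sum of the 6 seeds, 1499 RPM in CON and 2485 RPM in RES. miR-150 had 0.701 and 2.05 RPM and miR-155 had 2.70 and 1.44 RPM.

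Muscle and liver seeds were scarce. The seed of miR-1 and miR-206 had 1.60 and 4.56 RPM, miR-133 had 0 reads in CON and 1 in RES, and miR-122 had 0.501 and 5.70 RPM. The epithelial, red cell and white cell values move with the same contrast as all the differences above, in tRNA, Y RNA, mitochondrial RNA, rRNA, misc RNA and snoRNA as well as in miRNAs, and their part in those results was not tested.

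**Figure D5:**
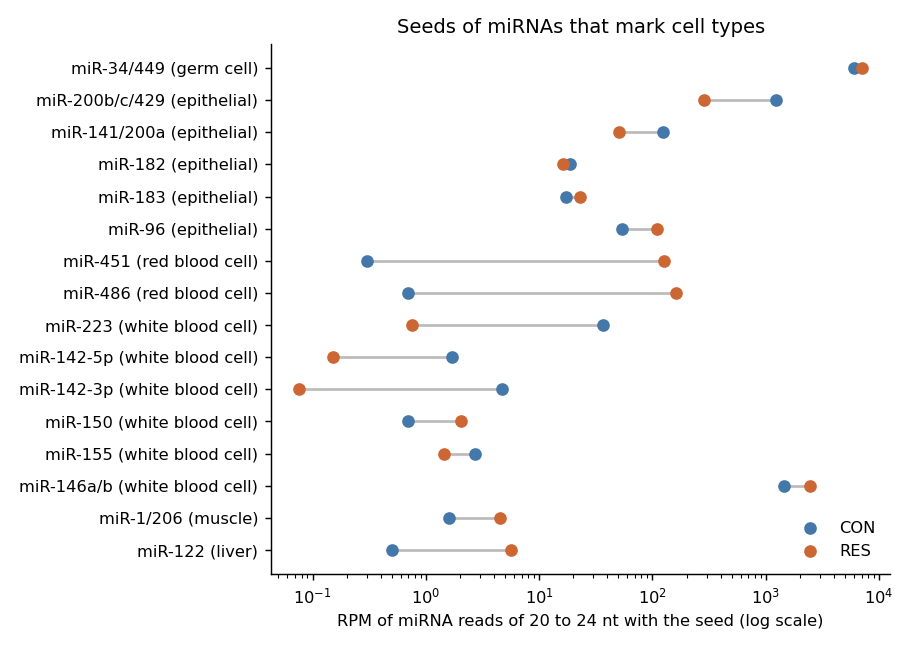
RPM (log scale) of miRNA reads of 20 to 24 nt with each marker seed, CON in blue and RES in orange, for the seeds with reads in both libraries. The miR-451 and miR-486 seeds lie far higher in RES and miR-223 and miR-142-3p far lower, while the seed of miR-34 and miR-449 is about level at 6019 and 7108 RPM.

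Genome-matching reads without annotation made up 22.1% of CON and 20.01% of RES. Those of 29 to 31 nt, the length of piRNAs, which guard the germ line against transposons and often begin with T, stood at 86484 RPM in CON and 68220 RPM in RES. They made up 24.5% and 23.2% of all reads of that length. A first base of T was found in 72.7% of them in CON and 80.3% in RES, and an A at position 10 in 31.1% and 30.96%. Those with a first T stood at 62868 and 54782 RPM, so their share was higher in RES although their level was lower.

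Reads without a genome match made up 20.3% of CON and 12.4% of RES. They included 4 sequences of 26 to 35 nt with at least 1000 RPM in CON and under 10 RPM in RES, with summed levels of 5253 and 14.1 RPM, and 0 sequences with these limits the other way round. These sequences could come from another organism and are not described further.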

How the data were processed

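Small RNA of F1 ram sperm was selected for short length, prepared with the NEBNext kit and read on a NovaSeq instrument, per the labels' protocols. The deposited tables give, per the file headers, each distinct sequence with its length, its count of reads, a genome flag and annotation names. These counts are whole numbers that the authors deposited without normalization. EdgeR is named in the submitters' processing notes. What is not given in the sources used here is the aligner, the annotation tool and the build.

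The 3 tables of a group held identical sequences and reads (annotation names differed for 1 sequence of RES), so 1 table per group was used and no test was run. The libraries held 9983895 (CON) and 13160116 (RES) reads, and 3 reads, which stood for a count of 0, are 0.3005 and 0.228 RPM. Sequences were put in 1 class each by annotation. Ratios used length-matched RPM, with exact binomial 95% intervals for plain ratios and delta-method intervals for matched ones. Reads with several names counted in full for each.

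Members, lists, marker seeds, sequences and motifs were chosen with earlier results of these data known. Named were the 8 miRNAs and 5 tRNAs with the largest ratio in each direction, the 10 miRNAs highest in CON, 5 other names per direction, members of the lists, the leading sequences of a class and the 10 most abundant seeds without an ovine name. The miRNA lists were let-7, DLK1-DIO3, metabolic, miR-17-92, miR-10 with miR-99 and miR-125, and miR-148 with miR-152, and the others were rodent diet tRNAs, mitochondrial tRNAs, rRNA species and cell type markers. The 5′ end windows, stretches, motifs and reads per 100 short reads were added after the data were seen. Of the tRNAs and other names that this rule takes, some are given only by count. The fragments of 1 tRNA that this rule takes are not reported here. Alternatives were other scalings (edgeR 4.0.16 TMM and DESeq2 1.42.0 size factors in R 4.3.3, used for scaling only), weights, filters, windows and denominators. Calculations used Python 3.11.15, pandas 2.3.3, NumPy 2.4.6 and SciPy 1.17.1, and the ratio calculation was tested on simulated data.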

Additional observations from a re-analysis of the deposited data

How the results depend on the processing

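No paired analysis was possible because the 3 tables of a group hold the same reads, so that no replicate is left to pair, and for the same reason no replicate could be left out. The tables of replicates 2 and 3 gave the same values as those of replicate 1. The class log2 ratios are given in the order nuclear tRNA, Y RNA, miRNA, misc RNA, mitochondrial rRNA and snoRNA. They were -0.62, 1.06, 0.47, 0.91, 1.22 and -1.63 in plain RPM, -0.27, 0.92, -0.0101, 0.72, 1.17 and -1.89 with CON length shares as weights, and -0.85, 0.83, 0.24, 0.68, 0.99 and -1.86 over annotated reads only. With genome-matching sequences they were -0.37, 0.75, -0.12, 0.58, 0.99 and -1.92, and without sequences of several classes -0.28, 0.92, -0.10, 0.74, 1.16 and -1.97. Without Y RNA reads they were -0.14 for nuclear tRNA, 0.00272 for miRNA, 0.85 for misc RNA, 1.27 for mitochondrial rRNA and -1.69 for snoRNA. The sign of the miRNA class thus depended on the setting, and that of the other classes did not in these settings. The difference in mean length was -1.29 nt over annotated reads.

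The number of miRNAs called higher was 0 and became 3 in plain RPM and 2 each with TMM, DESeq2 size factors and no filter. The number called lower was 23 and became 13 in plain RPM and 14 each with TMM and DESeq2. The tRNAs called higher, 3 in length-matched RPM, became 5 each in plain RPM, TMM and DESeq2, and 1 with genome-matching sequences. The tRNAs called lower, 0 in length-matched RPM, became 4 each in plain RPM and with DESeq2, 2 with CON weights, 1 each with TMM, an equal split over names and no filter, 3 with genome-matching sequences and 8 at 25 to 40 nt. Leu-TAA reversed at 25 to 40 nt, to -0.20. Of the 33 names called apart, 22 were still at least 2-fold apart in plain RPM, TMM and DESeq2. The count of 18 nuclear tRNAs with 5′ reads of 31 to 35 nt called lower became 10 without Y RNA reads in the total, a setting chosen after seeing the data. In plain RPM it was 20, and against the same tRNA's shorter reads 16. Depth limits names under about 100 reads, where counting intervals are wide.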
